A study of Chlamydomonas reinhardtii with 18 samples.

Results

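The measurements described here are the first 24 h of darkness in wild-type (WT) cells of Chlamydomonas reinhardtii, a unicellular green alga with a single large plastid and a pair of flagella. The WT was strain CC-4532, grown on Tris-acetate-phosphate (TAP) medium, which supplies acetate as a carbon source, in low light (around 30 µmol photons per m2 and second) until mid-log growth. Cells taken just before the light was switched off are the 0 h group, and cells kept in complete darkness for 24 h are the 24 h group, with 3 libraries labelled as biological replicates in each. These 6 libraries were chosen by their column names among 18, the other 12 being WT at 48 h of darkness and tpt10b, a knockout of the gene CreTPT10, at 0, 24 and 48 h. Acetate was in the medium of both groups. The 24 h of darkness and the 24 h of further growth have no lit control in these groups, so they cannot be told apart. Nothing in the labels says whether the replicates were separately grown cultures, and p-values measure the spread between libraries of this series only. For single genes that spread was estimated over all 18 libraries.

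In the light, algal plastids capture energy with chlorophyll proteins of the antenna and the photosystems, and fix carbon dioxide in the Calvin-Benson cycle. The proteins of these complexes come from nuclear and plastid genes together, and the plastid has its own ribosomes and RNA polymerase. In darkness with acetate, cells can draw on respiration and on acetate taken up through the glyoxylate cycle.

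The table held TPM values, a length-corrected transcript abundance that adds to the same total in every library, for 17693 genes, 4408 with a symbol. The 6 libraries held 59603478 to 78823417 reads, as recovered from TPM and gene length. Genes with a TPM above 0 numbered 16502 ± 61.0 at 0 h and 16636 ± 42.5 at 24 h (SD, n = 3, p = 0.1 in an exact two-sided permutation test, which cannot go lower with 3 libraries a group). Across genes, which are not independent replicates, log2 values correlated at 0.990 to 0.994 within 0 h, 0.990 to 0.995 within 24 h and 0.839 to 0.867 between the groups. Of the genes taken for vegetative photosynthetic cells, PSAD1 had 2587 to 2866 TPM at 0 h and 315 to 366 TPM at 24 h. TUB1 had 1183 to 1813 TPM and 110 to 136 TPM. Both fell in darkness, so their levels do not tell cell states apart. The 24 genes of the gamete and zygote list summed to 0.0602% to 0.0756% of TPM at 0 h and 0.0614% to 0.0668% at 24 h, and none of the 17 that were tested was at 0 in any of the 6 libraries. In such bulk RNA, fewer cells of a kind and less RNA per cell cannot be told apart.

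Changes below are differences of log2(TPM + 1), 24 h minus 0 h, ± the standard error of a limma fit, with p-values adjusted by Benjamini and Hochberg over 14731 genes. A gene is called at an adjusted p under 0.05. By this test 9776 genes (66.4%) changed: 5974 (40.6%) rose and 3802 (25.8%) fell. The falls went further than the rises. A log2 change of at least 3 was reached by 283 genes that fell and 80 that rose, and a change of at least 1 by 2013 and 2322. The median of all genes tested was 0.21, and median-of-ratios rescaling, called rescaling below, moved it to 0.01. After rescaling 4718 genes (32.0%) were higher and 5031 (34.2%) lower, so the share of called genes that were higher moved from 61.1% to 48.4%. Counts for gene lists are set against these percentages. All 3 libraries of a group lay beyond all 3 of the other for 72.0% of genes, in the higher direction for 43.8% and in the lower for 28.1%.

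The genes that fell furthest belonged to the cell wall, the photosynthetic antenna and the flagella. PHC18 (Cre24.g755997), a pherophorin of the extracellular matrix, had 115, 124 and 102 TPM in the 3 libraries at 0 h and 0.0231, 0 and 0.0644 TPM at 24 h. Its log2 change was -6.80 ± 0.15 (adjusted p = 3.59e-15), a value that the added 1 TPM makes smaller than the ratio of the levels. A second pherophorin gene, PHC5 (Cre05.g238650), went from 295, 364 and 265 TPM to 3.20, 3.96 and 4.43 TPM (-5.99 ± 0.23). PHC18 was nearly silent in every dark library, while PHC5 kept a low level.

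LHCA6 (Cre06.g278213), an antenna protein of photosystem I, had 1164, 1088 and 1149.7 TPM at 0 h and 24.1, 30.3 and 28.2 TPM at 24 h, a change of -5.32 ± 0.15 (adjusted p = 2.22e-14). PCY1 (Cre03.g182551), plastocyanin, which carries electrons to photosystem I, went from 7928, 7302 and 7877 TPM to 337, 362 and 335 TPM (-4.48 ± 0.19). The flagellar associated protein gene FAP292 (Cre03.g162850) stood at 741, 1102 and 1309.7 TPM and then at 25.4, 24.7 and 37.1 TPM (-5.11 ± 0.20). In each of these genes the groups were far apart, and the spread at 0 h was wider for FAP292 than for the other genes, with replicate 1 lowest. Of the 20 largest falls, 8 were flagellar associated protein genes (FAP292, FAP340, FAP170, FAP222, FAP41, FAP126, FAP1 and FAP385), 5 were antenna genes (LHCA6, LHCBM7, LHCB5, LHCA5 and LHCA4) and 2 were pherophorins. The others were PCY1, PETO1 of the thylakoid electron transport chain, the plastid ribosomal protein gene PSRP1, the tektin TEK1 and LIP1, a gene of the lipid list.

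The largest rises were a mixed set, with plastid genes, small heat shock proteins and genes of amine breakdown. rbcL (CreCp.g802313), the plastid gene for the large subunit of Rubisco, had 43.5, 74.8 and 58.9 TPM at 0 h and 1755, 1004 and 1715 TPM at 24 h, a change of 4.62 ± 0.26 (adjusted p = 1.12e-10). PHC66 (Cre02.g081700), also a pherophorin, went the opposite way to PHC18, from 1.17, 0.854 and 1.27 TPM to 46.4, 43.1 and 44.0 TPM (4.44 ± 0.28). Replicate 2 at 24 h was the lowest dark library for rbcL, and it still lay far above every lit value.

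HSP22A (Cre07.g318800) and HSP22B (Cre07.g318850) are small heat shock proteins with neighbouring identifiers, and reads may be shared between such copies. HSP22A had 0.954, 0.861 and 1.302 TPM at 0 h and 37.1, 55.7 and 36.6 TPM at 24 h (4.41 ± 0.30), and HSP22B changed by 4.41 ± 0.21. RRP6 (Cre03.g145767), named for a nuclease of the RNA exosome, stood at 3.12, 2.96 and 2.81 TPM and then 64.5, 59.999 and 67.6 TPM (4.04 ± 0.15). EFG12 (Cre07.g335200), a gene of the elongation factor G family, rose from 78.3, 87.8 and 78.9 TPM to 1193, 1449.9 and 1394 TPM (4.02 ± 0.15). EZY3 (Cre11.g482650), a gene first described as an early zygote transcript, went from 15.1, 21.7 and 20.5 TPM to 269, 253 and 271 TPM (3.74 ± 0.15).

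Among the other large rises, UBQ1 (Cre11.g467567), a ubiquitin gene, went from 311, 269 and 296 TPM to 3604, 4316 and 3711 TPM (3.73 ± 0.17). FAD6 (Cre13.g590500), a plastid fatty acid desaturase, stood at 378, 371 and 374 TPM and then 4363, 4861 and 4766 TPM (3.63 ± 0.12). CDO2, a cysteine dioxygenase (3.95), AIH2, an agmatine iminohydrolase (3.64), AMX2, an amine oxidase (3.55), and PFR1, pyruvate:ferredoxin oxidoreductase (3.53), were low at 0 h, under 6 TPM in each library, and rose as well. The 20 also included the plastid genes ycf12 and exons 1 and 2 of psaA, with PPD1, LCI30 and NSG13. All 20 rises and all 20 falls kept their direction and call under every alternative run.

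**Figure D1:**
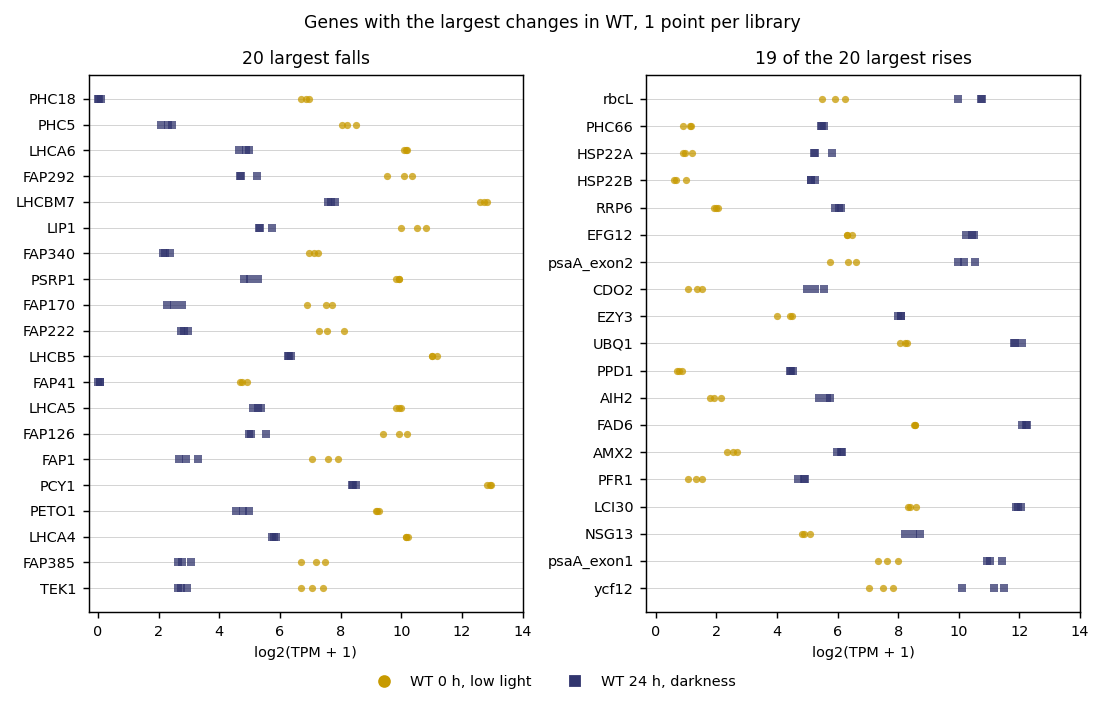
The 20 largest falls (left) and 19 of the 20 largest rises (right) among genes with a symbol, as log2(TPM + 1) on the horizontal axis, with 1 point for each of the 3 libraries at 0 h (circles) and 24 h (squares). No circle and square overlap in any row, by the rule that chose the genes, and the log2 change runs from -6.80 for PHC18 to 4.62 for rbcL.

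In TPM units the abundant genes moved most. LHCBM1, an antenna protein of photosystem II, fell from 9572, 8727 and 9131 TPM to 1253, 1394 and 1401 TPM (-2.76 ± 0.25), and PCY1, LHCBM7 and LHCBM3 followed. LCI3, a low-CO2 inducible gene, was among the 10 largest falls in TPM although its log2 change was small, -0.73 ± 0.07. The largest rise in TPM was that of RPS27E1, a cytosolic ribosomal protein, from 5936, 6790.3 and 6047 TPM to 15809, 12029 and 13277 TPM (1.12 ± 0.14). FAP162 rose from 1444, 1411 and 1459 TPM to 8689, 8415 and 8613 TPM (2.57 ± 0.10), against the direction of most genes with that prefix. PSB34 (3.33), EEF1A3 (1.92) and EIF5A (1.10), both of the latter translation factors, and RPS30 (0.48) were also among the 10. The call for RPS30 was lost after rescaling, and without any of the 0 h libraries or 24 h replicates 1 and 2.

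Nearly the whole antenna fell. Of 21 light-harvesting genes, 18 fell and 2 rose, with a median log2 change of -3.54 where that of all genes was 0.21. Their share of TPM was 5.59%, 5.03% and 5.34% in the libraries at 0 h and 1.01%, 1.02% and 1.03% at 24 h. LHCA1 of photosystem I had 2684, 2639 and 2613 TPM at 0 h and 219.9, 229 and 229 TPM at 24 h (-3.54 ± 0.08, adjusted p = 3.59e-15). LHCB5, a minor antenna protein of photosystem II, had 2299, 2085 and 2077 TPM and 77.3, 76.8 and 81.0 TPM (-4.76 ± 0.14). Libraries within a group lay close together and the groups did not overlap.

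The exceptions were LHCBM2, LHCBM9 and LHCB7. LHCBM2 had 6556, 6147 and 6498 TPM at 0 h and 6024, 5648 and 5927 TPM at 24 h (-0.13 ± 0.11, adjusted p = 0.311), the highest antenna level left in darkness. Its dark values all lay below its lit ones. After rescaling LHCBM2 was called lower, with 19 of the 21 antenna genes lower and 2 higher. LHCBM7, whose sequence is known to be nearly identical to that of LHCBM2, fell from 7228, 6269 and 6783 TPM to 189, 224 and 206 TPM, so how the authors' counting split reads between these genes bears on both values, and its part was not tested. LHCBM9 rose from 18.9, 11.6 and 17.7 TPM to 45.7, 50.3 and 50.4 TPM (1.57 ± 0.15) and LHCB7 from 9.81, 7.44 and 7.05 TPM to 17.1, 19.6 and 24.8 TPM (1.24 ± 0.18), both from low levels.

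Genes that protect the photosystems did not follow the antenna. Of 16 photoprotection and early light-induced genes, 9 rose and 3 fell, with a median of 0.67. ELIP10, an early light-induced protein, rose from 0.217, 0.317 and 0.661 TPM to 9.49, 7.41 and 11.6 TPM (2.90 ± 0.22), while ELIP8 fell from 104, 101 and 94.4 TPM to 27.3, 24.6 and 27.1 TPM (-1.89 ± 0.15). CVDE1, the algal violaxanthin de-epoxidase of the xanthophyll cycle, rose by 2.73 ± 0.10. The stress-related antenna gene LHCSR1 fell (-0.85), and LHCSR3A (-0.12) and LHCSR3B (-0.07) were not called.

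Nuclear genes for the photosystems and electron transport fell with the antenna. Of 26, 23 fell and 2 rose, with a median of -2.63, and their share of TPM went from 6.23% ± 0.187 to 1.44% ± 0.0658 (SD, n = 3). PSBP1, of the oxygen-evolving complex, had 3359.7, 3311 and 3333 TPM at 0 h and 305, 296 and 327 TPM at 24 h (-3.43 ± 0.09, adjusted p = 8.79e-15). PSBO1, of the same complex, went from 3009, 2743 and 2929 TPM to 165, 163 and 181 TPM (-4.09 ± 0.14). PSAG1, of photosystem I, changed by -4.23 ± 0.14. The rises were those of the ATP synthase subunits ATPD1 (0.51) and ATPC1 (0.32), and neither call held after rescaling. Rises numbered 1 without 24 h replicate 3.

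Of 25 genes of chlorophyll synthesis, 22 fell and 0 rose, with a median of -1.70, and 1 rose without 0 h replicate 1. GSA1, which makes the first committed precursor, had 109.7, 89.0 and 90.5 TPM at 0 h and 4.27, 4.66 and 5.23 TPM at 24 h (-4.09 ± 0.20, adjusted p = 1.67e-11). CHL27A, of the cyclase step, went from 567, 398 and 427 TPM to 25.5, 28.8 and 28.9 TPM (-4.002 ± 0.18), and POR1, the light-dependent protochlorophyllide reductase, from 218, 184 and 177 TPM to 22.6, 26.1 and 26.2 TPM (-2.90 ± 0.17). Levels at 0 h were highest in replicate 1 for each of these, and the dark libraries were alike. CHLH1, of the magnesium chelatase, fell less (-1.18), and CHLH2 (0.28), ALAD1 (-0.31) and UROS2 (-0.51) were not called as deposited. After rescaling 24 of the 25 genes were called lower and 0 higher.

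The plastid's own transcripts went the other way. Of 74 plastid-encoded genes, 52 rose and 4 fell, with a median of 1.45, and 50 and 7 after rescaling. Their share of TPM was 1.60%, 2.71% and 2.03% in the libraries at 0 h and 6.19%, 4.45% and 7.22% at 24 h. Replicate 2 was the highest at 0 h and the lowest at 24 h, and the groups did not overlap. Whether poly(A) selection or ribosomal RNA removal preceded the random priming is not given in the sources used here. How far organelle RNA was captured in each library was not tested.

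By role, all 6 ATP synthase genes rose, with a median of 2.55. atpB, a subunit of the catalytic head, had 50.2, 84.5 and 58.4 TPM at 0 h and 459, 318 and 539 TPM at 24 h (2.75 ± 0.28, adjusted p = 1.61e-07). Of 25 photosystem entries, 19 rose and 0 fell as deposited. psbD, for the D2 protein of photosystem II, went from 108, 188 and 136 TPM to 948, 588 and 1021 TPM (2.55 ± 0.27). The psbA gene for the D1 protein lies in the plastid genome in copies that reads cannot separate, and its entries changed by 3.35 and 3.45. Exons 1, 2 and 3 of psaA, counted apart and joined by trans-splicing, changed by 3.47, 3.99 and 3.18, while psaB, its partner in the photosystem I core, was not called (0.68 ± 0.32, adjusted p = 0.0732).

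Plastid genes for the machinery of expression rose too. Of 18 ribosomal protein genes in the plastid genome, 16 rose. Of 5 RNA polymerase entries, 4 rose, among them rpoB1 (3.12) and rpoC2 (2.88), and rpoC1 was not called (0.55).

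Cytochrome genes were divided. Of 6, petD (2.19) and petG (1.99) rose, ccsA, a heme attachment factor, fell from 12.9, 22.9 and 17.0 TPM to 4.71, 4.05 and 7.77 TPM (-1.52 ± 0.36), and petA (-0.11), petB (0.66) and petL (0.45) were not called. cemA, for a protein of the plastid envelope, rose (1.81). The plastid genes for light-independent protochlorophyllide reductase, chlB (0.75), chlL (-0.02) and chlN (-0.69), were not called either. The other plastid genes that fell were orf528 (-0.86) and a pair of entries named icreI (-1.48 and -1.46), which reads may not separate.

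Nuclear genes for the plastid ribosome moved opposite to the plastid's own. All 37 nuclear genes for plastid ribosomal proteins fell, with a median of -2.02 and a range from -4.85 to -0.65, and their share of TPM went from 1.40% ± 0.0610 to 0.363% ± 0.0156 (SD, n = 3). PSRP1 had 962, 902 and 973 TPM at 0 h and 27.2, 37.4 and 31.4 TPM at 24 h (-4.85 ± 0.24), and PRPL7 1895, 1785 and 1703 TPM and 275, 289.8 and 321 TPM (-2.60 ± 0.12, adjusted p = 1.02e-11). The highest change among the 37 was still below the lowest among the 18 plastid ribosomal protein genes, 0.41. Of 62 nuclear OPR genes, whose octotricopeptide repeat proteins act on organelle RNAs, 38 rose and 3 fell, with a median of 0.40. OPR37 rose from 12.4, 10.02 and 10.7 TPM to 50.1, 54.1 and 59.6 TPM (2.21 ± 0.14) and OPR36 fell from 13.9, 10.5 and 10.2 TPM to 3.51, 3.52 and 3.77 TPM (-1.44 ± 0.14). After rescaling 31 rose and 7 fell. Most OPR genes were low, and 7 rose among those with a mean TPM of 5 or more over all 18 libraries. Counts under this limit, here and below, are over fewer genes than were tested without it.

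**Figure D2:**
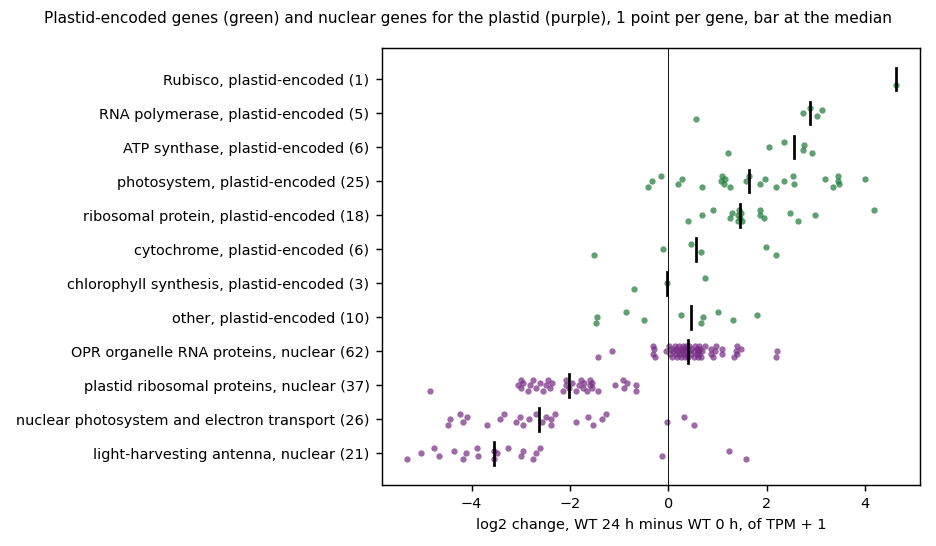
Log2 change of TPM + 1 from 0 h to 24 h on the horizontal axis, for plastid-encoded genes by role (green) and nuclear genes that serve the plastid (purple), with 1 point per gene tested and a bar at each median. ATP synthase and RNA polymerase genes of the plastid sit to the right, with medians of 2.55 and 2.88, and the 37 nuclear plastid ribosomal protein genes sit to the left of 0.

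Calvin-Benson cycle genes fell more often than they rose, with some far in the other direction. Of 20, 11 fell and 4 rose, with a median of -0.52, where 25.8% of all genes fell and 40.6% rose. PRK1, phosphoribulokinase, which works in this cycle alone, had 761, 609 and 695 TPM at 0 h and 48.7, 55.0 and 54.9 TPM at 24 h (-3.67 ± 0.23, adjusted p = 3.61e-10). FBA1, a fructose-bisphosphate aldolase, went the opposite way, from 93.5, 92.0 and 99.2 TPM to 844, 859 and 871 TPM (3.16 ± 0.11, adjusted p = 3.87e-13). The small subunit genes of Rubisco are close copies and differed: RBCS1 fell from 3462, 3146 and 3425 TPM to 882, 789.9 and 806 TPM (-2.02 ± 0.11), while RBCS2 had 8285, 8452 and 8059 TPM and 10114, 9521 and 9181 TPM (0.22 ± 0.10, adjusted p = 0.0773). After rescaling 12 of the list fell and 2 rose, with a median of -0.80. Rises numbered 7 in a fit on the compared groups only.

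Genes of the carbon concentrating mechanism, which raises CO2 around Rubisco, included 15 of 34 that rose and 8 that fell, with a median of 0.13. Both counts lay near the shares of all genes, 40.6% and 25.8%. LCI30 had 320.1, 385 and 331 TPM at 0 h and 3814, 3927 and 4259 TPM at 24 h (3.53 ± 0.12). EPYC1, which packs Rubisco into the pyrenoid, rose from 407, 376 and 386 TPM to 1183, 1127 and 1244 TPM (1.60 ± 0.10).

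Starch genes also split. Of 23 for synthesis, 11 rose and 7 fell, and after rescaling 8 and 8. These counts lay near the shares of all genes, 40.6% higher and 25.8% lower, and 32.0% and 34.2% after rescaling. GBSS1A, the granule-bound starch synthase, rose from 64.4, 55.8 and 59.0 TPM to 221, 225 and 242 TPM (1.92 ± 0.10), and AGP1, of ADP-glucose pyrophosphorylase, the step that feeds the pathway, fell from 247, 214 and 226 TPM to 48.2, 46.6 and 54.4 TPM (-2.18 ± 0.12). Of 12 for starch breakdown, 2 rose and 3 fell, and rescaling gave 1 and 7. Rises numbered 1 without 0 h replicate 2 or 24 h replicate 3. The alpha-amylase genes AMA1 (-1.298 ± 0.25) and AMA2 (-0.84 ± 0.22) fell and AMA3 rose (0.59 ± 0.15). Both triose phosphate translocator genes with a symbol fell, TPT2 (-2.26 ± 0.23) and TPT3 (-0.86 ± 0.11), of a family that passes phosphorylated sugars across membranes.

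Flagellar genes fell as widely as the antenna. Of 336 flagellar associated protein genes, 293 fell and 19 rose, with a median of -2.40. Of 71 for axonemal dyneins, radial spokes and the central pair, which make up the moving core, 66 fell and 3 rose, with a median of -2.79. Of 32 for intraflagellar transport and the BBSome, which carry cargo along the flagellum, 29 fell and 0 rose, with a median of -2.71. All 5 tubulin and flagellar membrane genes fell.

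TUB2, for beta-tubulin, had 1416, 1847 and 2358 TPM at 0 h and 94.7, 112 and 123 TPM at 24 h (-4.06 ± 0.21, adjusted p = 3.75e-11). TUA1, for alpha-tubulin, went from 1426, 1673 and 2061 TPM to 179, 165 and 214 TPM (-3.19 ± 0.15). The tubulin genes come in near-identical copies, TUA1 with TUA2 and TUB1 with TUB2, so the split within each pair is uncertain. Replicate 1 was lowest and replicate 3 highest at 0 h in TUB2 and TUA1, and that order held at 0 h for the flagellar genes given next.

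FMG1B, the main glycoprotein of the flagellar membrane, had 75.4, 95.8 and 117 TPM at 0 h and 5.34, 5.95 and 6.62 TPM at 24 h (-3.78 ± 0.24). IFT80, of the transport particle, went from 61.1, 70.1 and 91.1 TPM to 3.78, 5.36 and 4.40 TPM (-3.76 ± 0.16, adjusted p = 4.40e-12), and RSP9, of the radial spokes, from 270.5, 335 and 415 TPM to 21.4, 24.9 and 28.3 TPM (-3.71 ± 0.15). BBS1 was among those not called (-0.03 ± 0.15, adjusted p = 0.888). The lit libraries spread more than the dark ones, yet their lowest value lay far above the highest dark value in all 3 called genes.

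A few genes of these lists rose. FAP162, given above, reached the highest level of any flagellar associated protein gene named here. FAP317 (1.93), FAP237 (1.52) and FAP204 (1.503) rose less. In the axonemal list the rises were IDA5, for actin, which cells use outside the flagella too (0.73 ± 0.15), and the dynein heavy chain genes DHC3 (0.84) and DHC12 (0.46), both under 3 TPM. Among 59 basal body genes, 28 fell and 12 rose, with a median of -0.32, and with a mean TPM of 5 or more required 9 fell and 5 rose. POC7 fell from 155, 139 and 158 TPM to 42.9, 43.4 and 44.4 TPM (-1.77 ± 0.08).

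**Figure D3:**
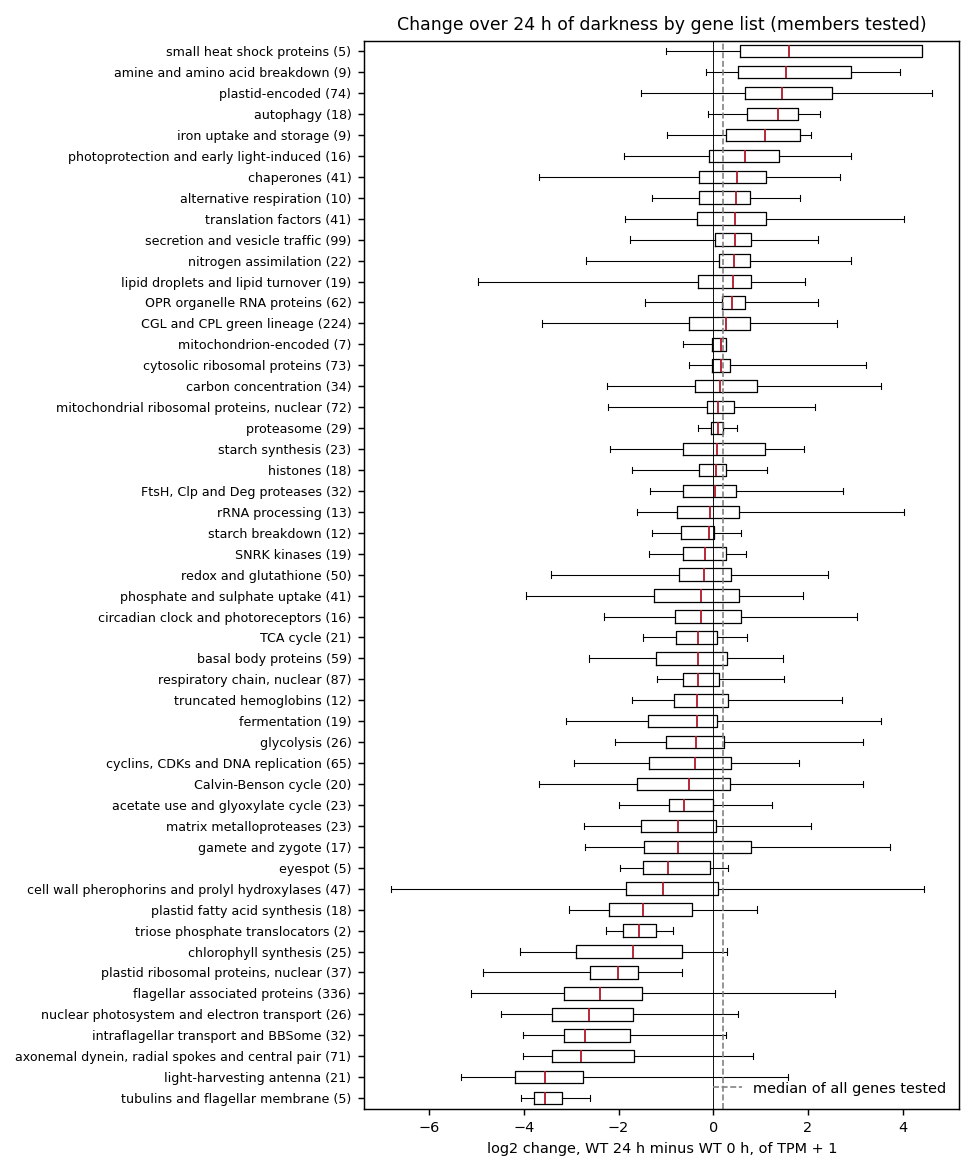
Log2 change of TPM + 1 from 0 h to 24 h (horizontal axis) for the members tested of 51 gene lists, ordered by median, with the number tested in brackets. Boxes span the quartiles with the median in red, whiskers reach the lowest and highest member, and the dashed line is the median of all genes, 0.21; flagellar and photosynthetic lists lie at the bottom, and small heat shock, amine breakdown, plastid-encoded and autophagy genes at the top.

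Cytosolic ribosomal protein transcripts, which made up 33.5% ± 1.32 of TPM at 0 h and 37.5% ± 2.53 at 24 h (SD, n = 3, exact permutation p = 0.2, with the groups overlapping), changed little gene by gene. Of 73, 24 rose and 1 fell with a median of 0.16, and rescaling gave 8 and 9 with a median of -0.12. With each library left out in turn 16 to 23 rose, and 0 fell without 0 h replicates 1 or 3 or 24 h replicate 1 and 2 without 24 h replicate 2. RPLP0, of the ribosomal stalk, had 2326, 2373 and 2238 TPM at 0 h and 4196, 3815 and 3882 TPM at 24 h (0.78 ± 0.09), and RPS27E2 rose from 42.2, 32.9 and 30.5 TPM to 257, 449.8 and 321 TPM (3.22 ± 0.30).

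Translation factors moved both ways. Of 41, 21 rose and 11 fell, where 40.6% of all genes rose and 25.8% fell. Rescaling gave 21 and 15, against 32.0% and 34.2%. The share of TPM held by translation factors went from 1.25% ± 0.0289 to 3.10% ± 0.134 (SD, n = 3). EEF1A3, of the factor that brings tRNA to the ribosome, had 2069, 1943 and 1960.3 TPM at 0 h and 7160.0, 7553 and 7872 TPM at 24 h (1.92 ± 0.08, adjusted p = 2.94e-12). EIF4A, an RNA helicase of initiation, went from 1345, 1300.4 and 1354 TPM to 3969, 4363 and 4343 TPM (1.66 ± 0.10). Both groups were tight and far apart in these genes.

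Genes for making ribosomes and for the mitochondrial ribosome split as well. Against 40.6% of all genes that rose and 25.8% that fell, 4 of 13 rRNA processing genes rose, RRP6 furthest, and 4 fell. Those that fell included NOP56 (-1.62 ± 0.26) and NOP1, fibrillarin (-1.28 ± 0.22). Only 2 of this list rose without 0 h replicate 2 or 24 h replicate 3, and 2 fell without 0 h replicate 1 or 24 h replicate 1. Of 72 nuclear genes for mitochondrial ribosomal proteins, 18 rose and 7 fell, and rescaling gave 13 and 22. MRPL10 fell from 384, 358 and 333 TPM to 79.2, 67.1 and 82.8 TPM (-2.22 ± 0.11), and MRPL36 rose by 2.14 ± 0.17. Of 7 mitochondrion-encoded genes, all under 6 TPM, nad2 fell (-0.65 ± 0.22, adjusted p = 0.0153, call lost without 24 h replicate 3) and none rose.

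Genes of autophagy, by which cells digest their own contents, rose nearly without exception. Of 18, 16 rose and 0 fell, with a median of 1.37. ATG8, the protein that coats the forming vesicle, had 149.8, 156 and 174 TPM at 0 h and 479.7, 737 and 528 TPM at 24 h (1.83 ± 0.21, adjusted p = 7.60e-07). ATG101, of the complex that starts the process, went from 40.5, 47.6 and 40.4 TPM to 190.2, 192 and 219 TPM (2.20 ± 0.10, adjusted p = 7.34e-12), and ATG12, a ubiquitin-like conjugation protein, from 16.1, 19.0 and 19.97 TPM to 92.8, 83.2 and 97.1 TPM (2.25 ± 0.14). TOR1, the kinase that restrains autophagy, rose by 0.57 ± 0.20, and its partners RAPTOR1 (0.23) and LST8 (-0.12) were not called. After rescaling 14 rose and 1 fell.

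The proteasome, the other main route of protein breakdown, showed small values. Of 29 genes, 5 rose and 1 fell, with a median of 0.09, and rescaling left 0 and 9. With libraries left out the rises numbered 2 to 7: 2 without 0 h replicate 2, 0 h replicate 3 or 24 h replicate 3, and 3 without 24 h replicate 2. The 1 fall was lost without any of 0 h replicates 1 and 3 or the 24 h libraries, and 2 fell without 0 h replicate 2. PBD1, of the core particle, had 87.0, 64.7 and 86.1 TPM at 0 h and 105, 112 and 115 TPM at 24 h (0.49 ± 0.11), a call lost after rescaling.

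Chaperone genes rose more often than they fell, 24 against 11 of 41, with a median of 0.50. BIP2, a chaperone of the endoplasmic reticulum, had 15.4, 13.7 and 18.4 TPM at 0 h and 104, 116 and 97.7 TPM at 24 h (2.67 ± 0.18, adjusted p = 1.08e-09). CPN60A (1.42 ± 0.12) and HSP70B (1.25 ± 0.11) of the plastid also rose. In contrast CCT1 to CCT8, subunits of the cytosolic chaperonin known for folding tubulin and actin, all fell, from -1.10 for CCT8 to -1.503 for CCT5, and the gene named CCT9 rose (1.17). HSP70H fell from 51.9, 67.0 and 87.2 TPM to 4.15, 4.08 and 4.65 TPM (-3.69 ± 0.21). Of the 5 small heat shock genes tested, HSP22A, HSP22B, HSP22E (1.61 ± 0.18) and HSP22F (0.57 ± 0.17, call lost after rescaling) rose and HSP22D fell (-1.01 ± 0.23).

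Of 32 FtsH, Clp and Deg genes, for plastid and mitochondrial proteases, 10 rose and 11 fell, and rescaling gave 8 and 14. The shares of all genes were 40.6% higher and 25.8% lower, and 32.0% and 34.2% after rescaling, so no direction is drawn for this list. CLPX1, an unfolding subunit, rose from 27.4, 26.0 and 26.6 TPM to 172, 188 and 195 TPM (2.75 ± 0.14). Of 99 genes of secretion and vesicle traffic, 54 rose and 11 fell with a median of 0.46, and rescaling gave 37 and 19. VPS5A, named for a subunit of the retromer coat, rose from 18.2, 15.3 and 16.1 TPM to 74.98, 84.7 and 81.6 TPM (2.22 ± 0.18), and VPS39 fell from 4.45, 3.98 and 4.82 TPM to 0.434, 0.938 and 0.462 TPM (-1.76 ± 0.14).

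Genes for using acetate fell more often than they rose. Of 23 in acetate use and the glyoxylate cycle, 14 fell and 3 rose, with a median of -0.62, and falls numbered 9 without 0 h replicate 1 or 24 h replicate 1. MAS1, malate synthase, had 1079.8, 1029 and 946 TPM at 0 h and 382, 459 and 455 TPM at 24 h (-1.24 ± 0.19, adjusted p = 2.05e-05). ICL1, isocitrate lyase, the other enzyme particular to the cycle, stood at 4340.1, 4263 and 3876 TPM and 3984, 4344 and 4759.9 TPM, where the groups overlapped (0.07 ± 0.13, adjusted p = 0.667). GFY5, of a family that includes acetate transporters, fell from 3970.1, 3748 and 3825 TPM to 1413, 1964 and 1780.4 TPM (-1.17 ± 0.21). ACS1, an acetyl-CoA synthetase, rose from a low level (1.23 ± 0.14), and ACS3, another, fell (-1.55 ± 0.40).

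Respiratory genes shifted by small amounts. Of 21 TCA cycle genes, 10 fell and 3 rose, with IDH2, isocitrate dehydrogenase, at -1.48 ± 0.26. Quantile normalisation gave 6 that rose. Of 87 nuclear genes of the respiratory chain, 42 fell and 16 rose, with a median of -0.32 and a range from -1.20 to 1.503, and rescaling gave 56 and 8. COX90, of cytochrome oxidase, had 871, 823 and 886 TPM at 0 h and 456, 447 and 456 TPM at 24 h (-0.92 ± 0.11).

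Of 10 genes of alternative respiration, 6 rose and 2 fell, and rescaling gave 3 and 3. AOX1, the alternative oxidase, fell from 233, 308 and 388 TPM to 129.7, 104 and 135 TPM (-1.302 ± 0.19), and AOX2 rose from 9.81, 9.44 and 10.8 TPM to 16.3, 16.5 and 15.5 TPM (0.63 ± 0.13). Among 26 glycolysis genes, 13 fell and 5 rose, with PGK1, phosphoglycerate kinase, at -1.89 ± 0.14; FBA1, given above, also belongs to this list.

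Fermentation genes, which green algae use when oxygen is short, mostly fell. Of 19, 10 fell and 3 rose, with a median of -0.34. HYDA1, the iron hydrogenase, had 369, 374 and 409 TPM at 0 h and 85.8, 91.5 and 100.3 TPM at 24 h (-2.04 ± 0.09, adjusted p = 9.87e-12). FDX5, a ferredoxin, went from 53.9, 28.3 and 39.4 TPM to 2.65, 5.39 and 3.32 TPM (-3.11 ± 0.34). PFR1, whose product makes acetyl-CoA and reduced ferredoxin from pyruvate, went the other way, from 1.87, 1.09 and 1.5005 TPM to 25.1, 29.1 and 28.8 TPM (3.53 ± 0.21, adjusted p = 1.96e-10). PFL1, pyruvate formate lyase, was not called (0.13 ± 0.16, adjusted p = 0.495).

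Plastid fatty acid synthesis fell, with 13 of 18 genes lower and 3 higher and a median of -1.48. BCC2, a biotin carrier of acetyl-CoA carboxylase, had 292, 267 and 266 TPM at 0 h and 30.0, 31.3 and 36.9 TPM at 24 h (-3.04 ± 0.15, adjusted p = 1.67e-11). PDH2, of the plastid pyruvate dehydrogenase, went from 154, 134 and 129 TPM to 25.4, 27.2 and 25.6 TPM (-2.37 ± 0.10). ACP2, the acyl carrier protein with the highest levels named here, fell from 3276, 3349.9 and 3201 TPM to 1530.2, 1539 and 1389.6 TPM (-1.14 ± 0.14).

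Of 19 genes of lipid droplets and lipid turnover, 9 rose and 4 fell, and rescaling gave 7 and 7. These counts lay near the shares of all genes, 40.6% higher and 25.8% lower, and 32.0% and 34.2% after rescaling. MLDP1, the major lipid droplet protein, rose from 76.1, 74.8 and 73.0 TPM to 283, 278 and 307 TPM (1.94 ± 0.12). DGAT3, which makes triacylglycerol, rose by 1.87 ± 0.11. LIP1 had 1015, 1476 and 1795 TPM at 0 h and 39.9, 38.7 and 53.0 TPM at 24 h (-4.97 ± 0.32), the largest fall of the list.

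In the list of amine and amino acid breakdown 8 of 9 genes rose and 0 fell, with a median of 1.53. LAO3, an L-amino acid oxidase, was not called (-0.14) and was called lower after rescaling. UOX1, urate oxidase, had 7.98, 6.83 and 8.21 TPM at 0 h and 64.9, 60.2 and 66.9 TPM at 24 h (2.91 ± 0.11, adjusted p = 8.49e-13). CDO1, a cysteine dioxygenase, went from 33.8, 21.3 and 25.8 TPM to 104, 113 and 127 TPM (2.07 ± 0.18). Several of these genes were low, and 5 rose among those with a mean TPM of 5 or more. Of 22 nitrogen assimilation genes, 14 rose and 3 fell. GLN1, glutamine synthetase, rose from 386, 345 and 321 TPM to 611, 646 and 659 TPM (0.87 ± 0.12), while the ammonium transporter gene AMT1C fell from 26.9, 37.1 and 44.4 TPM to 4.89, 4.17 and 4.87 TPM (-2.69 ± 0.19). Under that limit 8 assimilation genes rose, and rescaling gave 10 and 5.

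Iron uptake genes were among those that rose, 6 of 9 with 2 lower and a median of 1.10. FOX1, the ferroxidase of the uptake system, had 46.7, 33.8 and 34.3 TPM at 0 h and 123, 146 and 144 TPM at 24 h (1.83 ± 0.19, adjusted p = 1.87e-07). FTR1, its partner permease, went from 23.3, 17.8 and 23.4 TPM to 42.4, 45.7 and 50.05 TPM (1.07 ± 0.16). FER1, ferritin, which stores iron, fell from 267, 244 and 247 TPM to 166, 167 and 172 TPM (-0.59 ± 0.13).

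Of 41 phosphate and sulphate uptake genes, 18 fell and 14 rose. PTB3, of a family of sodium and phosphate symporters, fell from 53.8, 44.6 and 49.5 TPM to 2.17, 2.64 and 1.88 TPM (-3.96 ± 0.18). Of 12 truncated hemoglobin genes, 6 fell and 3 rose, THB8 from 0.209, 0.267 and 0.276 TPM to 6.78, 6.78 and 8.36 TPM (2.73 ± 0.19). With a mean TPM of 5 or more required, 10 phosphate and sulphate genes fell and 6 rose.

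Wall and matrix genes fell, with some members far in the other direction. Of 47 pherophorin, prolyl hydroxylase and related genes, 31 fell and 12 rose, with a median of -1.06 and a range from -6.80 to 4.44. PFH10, a prolyl 4-hydroxylase of the kind that modifies wall proteins, had 107, 73.7 and 77.3 TPM at 0 h and 2.92, 3.42 and 3.98 TPM at 24 h (-4.28 ± 0.17, adjusted p = 1.24e-12). PHC30 rose by 2.95 ± 0.23. Of 23 matrix metalloprotease genes, 13 fell and 2 rose, with MMP1 going from 135, 135 and 127 TPM to 17.8, 19.5 and 19.9 TPM (-2.73 ± 0.13), and 6 fell and 1 rose with a mean TPM of 5 or more required.

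Gamete and zygote genes moved both ways, 9 of 17 lower and 6 higher, with a median of -0.75, and 3 rose with a mean TPM of 5 or more required. EZY3 rose furthest. GSP1, a homeodomain protein of plus gametes, had 8.21, 6.11 and 5.77 TPM at 0 h and 1.36, 1.505 and 1.42 TPM at 24 h (-1.65 ± 0.17), and ZYS3 went from 19.1, 12.3 and 19.1 TPM to 1.77, 2.17 and 1.98 TPM (-2.56 ± 0.22). SAG1, the plus agglutinin, stayed under 2 TPM in every library while rising by 1.05 ± 0.11, and HAP2, the gamete fusion protein, under 4 TPM (0.81 ± 0.26).

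Cell cycle genes fell more often than they rose. Of 65 cyclin, kinase and replication genes, 30 fell and 18 rose, with a median of -0.38, and 19 fell with a mean TPM of 5 or more required. CYCB1, the mitotic B-type cyclin, had 149, 102 and 152 TPM at 0 h and 14.7, 15.05 and 19.6 TPM at 24 h (-2.94 ± 0.22, adjusted p = 2.98e-09). TOP2, a topoisomerase, went from 9.55, 5.30 and 9.85 TPM to 0.478, 0.835 and 1.04 TPM (-2.34 ± 0.19), and DP1, a partner of the E2F factor, rose from 9.63, 5.604 and 7.28 TPM to 25.9, 29.4 and 29.9 TPM (1.81 ± 0.14). Of 120 histone genes, only 18 passed the filter, and of these 4 fell and 3 rose. Without a filter 8 fell. Rises numbered 1 after quantile normalisation and 0 by limma-voom on the recovered reads. HAV2 fell from 444, 289 and 459 TPM to 102, 128 and 127 TPM (-1.71 ± 0.21). Histone genes come in many near-identical copies, and values of single copies are uncertain.

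Among 16 clock and photoreceptor genes, 6 fell and 5 rose, where 25.8% of all genes fell and 40.6% rose. ROC40, a clock component, rose from 1.02, 0.936 and 0.771 TPM to 13.7, 13.8 and 16.5 TPM (3.04 ± 0.16, adjusted p = 4.71e-11), and ROC15 and ROC59 by 1.27 and 1.31. The labels give no time of day for the 0 h harvest. PHOT1, phototropin, a blue light receptor, fell from 103, 109.5 and 108 TPM to 49.0, 49.5 and 58.0 TPM (-1.02 ± 0.11), and CHR2, the channelrhodopsin that guides swimming, from 18.03, 18.1 and 20.6 TPM to 5.71, 6.39 and 7.06 TPM (-1.43 ± 0.15). Of the 5 eyespot genes, EYE2, MIN1 and EYE3 fell, EYE2 furthest (-1.96 ± 0.21). MLT2 rose by 0.32, a call lost without 0 h replicate 3, 24 h replicate 1 or 24 h replicate 3, and MLT1 was not called (-0.07).

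Of 50 redox and glutathione genes, 18 fell and 14 rose, and rescaling gave 27 and 9. PRX1, a peroxiredoxin, had 909, 708 and 851 TPM at 0 h and 68.7, 85.1 and 73.5 TPM at 24 h (-3.42 ± 0.23), and TRXF2, thioredoxin f, which switches on Calvin-Benson enzymes in the light, fell from 97.8, 81.6 and 89.3 TPM to 8.23, 8.76 and 7.95 TPM (-3.28 ± 0.15). Of 19 SNRK kinases, 6 fell and 1 rose, with 2 rises without 0 h replicate 1 or 24 h replicate 1 and 10 falls after rescaling. Of 224 genes named CGL or CPL for conservation in the green lineage, 95 rose and 61 fell, near the 40.6% and 25.8% of all genes. The furthest of the named ones was CPLD30 (-3.62).

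**Figure D4:**
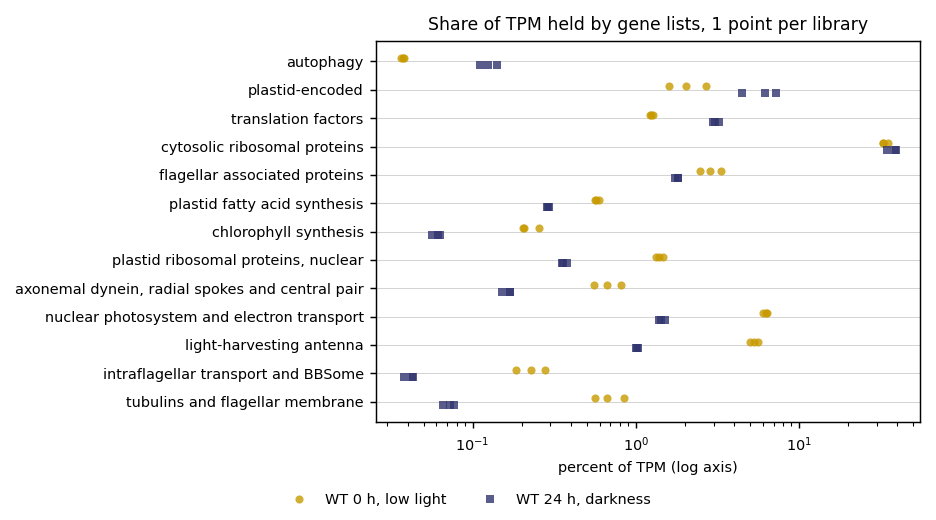
Percent of TPM held by 13 gene lists in each library, on a log axis, with circles for the 3 libraries at 0 h and squares for the 3 at 24 h; the 13 lists were chosen after their values were seen. Squares lie left of circles for the antenna (about 5.32% against 1.02%) and the flagellar lists, and right of them for plastid-encoded, translation factor and autophagy genes.

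On the second day of darkness some of these changes went on and others turned back. WT at 48 h shared its baseline, the 24 h libraries, with the comparison above, so a chance value at 24 h moves both changes. Of 14731 genes, 2472 (16.8%) rose and 3643 (24.7%) fell from 24 h to 48 h. The balance of directions depended on the scaling, since after rescaling 3352 (22.8%) rose and 2894 (19.6%) fell. Of the 20 largest rises, 8 rose further, 8 moved back and 4 were not called, and after rescaling 9, 8 and 3. Of the 20 largest falls, 6 fell further and 2 moved back as deposited, and 2 and 6 after rescaling. On each scale 12 were not called, though these were not the same 12 genes.

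PHC66 rose further, from a mean of 44.5 TPM at 24 h to 549 TPM at 48 h (3.57 ± 0.28, adjusted p = 5.51e-08). EZY3 (1.69 ± 0.15, adjusted p = 2.58e-07) and UBQ1 (1.27 ± 0.17, adjusted p = 2.59e-05) also rose again. rbcL moved back from 1491 TPM to 554 TPM (-1.43 ± 0.26, adjusted p = 4.11e-04), and HSP22A from 43.1 TPM to 12.6 TPM (-1.76 ± 0.30, adjusted p = 1.85e-04). PCY1 fell further (-1.10 ± 0.19, adjusted p = 1.83e-04), and after rescaling too. LHCA6 was not called as deposited (0.17 ± 0.15, adjusted p = 0.363) and rose after rescaling (0.33, adjusted p = 0.0172).

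By list, 45 of the 74 plastid-encoded genes fell on the second day and 0 rose, with a median of -1.03 where that of all genes was -0.10. After rescaling 40 fell and 0 rose. Of the 37 nuclear plastid ribosomal protein genes, 28 fell again, and 20 after rescaling. Intraflagellar transport moved back in part, with 19 of 32 genes higher and 2 lower and a median of 0.65, and 23 and 2 after rescaling. Of 87 respiratory chain genes 68 fell and 1 rose, and 47 and 2 after rescaling, while 6 of 9 iron uptake genes fell and 0 rose on either scale.

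**Figure D5:**
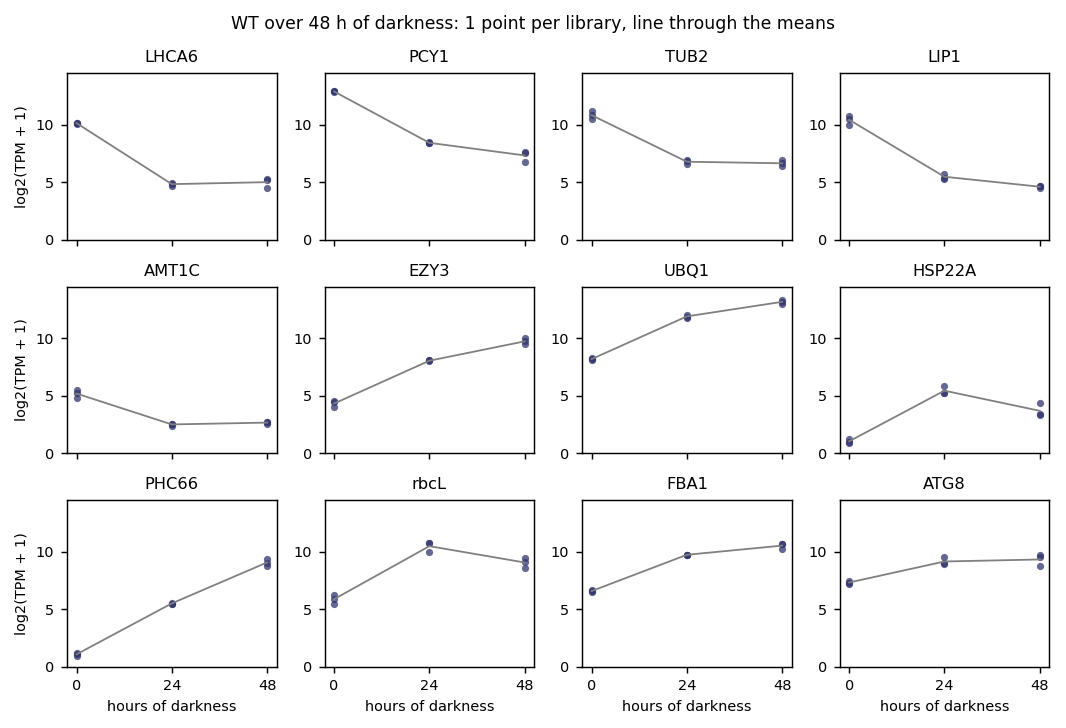
Levels of 12 genes in WT, as log2(TPM + 1), against hours of darkness, with 1 point per library (3 at each time) and a line through the means; the genes were chosen after their values were seen. PHC66, EZY3 and UBQ1 climb over both days, rbcL and HSP22A peak at 24 h, and LHCA6 and TUB2 stay low after the first day.

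The nearest comparison in the series is tpt10b over the same 24 h, grown and darkened in the same way. As deposited, 9456 of 14731 genes (64.2%) changed differently in tpt10b and WT, 921 (6.25%) toward higher values in tpt10b and 8535 (57.9%) toward lower. The median difference of all genes was -0.65, and rescaling moved it to 0.05 and the counts to 3640 (24.7%) and 2909 (19.7%). The rescaling factors were 1.25 to 1.32 in tpt10b at 0 h and 0.800 to 0.858 at 24 h, against 0.800 to 0.993 and 1.00 to 1.12 in WT. The tpt10b libraries at 24 h held 15490 to 16231 genes above 0, fewer than the 16594 to 16679 of WT at 24 h, and the part of this in the differences was not tested.

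FDX5 changed by -3.11 in WT and -6.83 in tpt10b, a difference of -3.72 ± 0.48, adjusted p = 2.70e-05, where tpt10b started from 239 TPM against 40.5 in WT. PFR1 rose in WT but began high in tpt10b, at 21.9 TPM, and was at 29.8 TPM after 24 h (difference -3.15 ± 0.30, adjusted p = 3.86e-06). NDA3, a type II NADH dehydrogenase, stood at 57.1, 44.3 and 46.5 TPM and 38.7, 76.2 and 50.7 TPM in WT and was not called there (adjusted p = 0.781), and in tpt10b it went from 68.7 to 7.41 TPM (difference -3.19 ± 0.48, adjusted p = 7.17e-05). The 3 genes kept this direction and call after rescaling.

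Toward higher values in tpt10b, petL changed by 0.45 in WT, where the groups overlapped, and by 3.58 in tpt10b, from 55.4 TPM against 162 in WT (difference 3.13 ± 0.45, adjusted p = 5.10e-05). NRX3, a nucleoredoxin, fell in WT from 48.3, 70.3 and 66.0 TPM to 17.0, 17.5 and 20.6 TPM and in tpt10b stood at 14.2 TPM and then 27.2 TPM (difference 2.63 ± 0.34, adjusted p = 2.62e-05). FAP126 went from 931 to 35.8 TPM in WT and from 238 to 58.3 TPM in tpt10b, with the groups further apart at 0 h than at 24 h (difference 2.48 ± 0.45, adjusted p = 2.48e-04). For the antenna the direction depended on the scaling: 8 of 21 genes went lower in tpt10b and 0 higher as deposited, and 0 and 9 after rescaling.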

How the data were processed

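Total RNA was DNase-treated, fragmented and primed with random hexamers, per the labels' protocols. Per the submitters' processing notes, the tools included StringTie 1.3.3b and HISAT2 2.0.5. The gene models are those of CC-4532 v6.1, per the deposited legend, and the counting tool and strandedness are not given in the sources used here. The authors deposited TPM for 17693 genes in 18 libraries with a gene length in bases. TPM times length gave whole reads within 0.01 for 100% of genes, on the reading that the smallest step is 1 read, and 94.4% of lengths were multiples of 3, so lengths are called coding lengths.

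A gene was tested if 3 or more of the 18 libraries had it at 1 TPM or above, which left 14731 genes, 4120 of them with a symbol. The limma fit (version 3.58.1, R 4.3.3) used log2(TPM + 1), all 18 libraries, a mean for every group and a variance trend. Values with 1 number per library were compared by exact two-sided permutation tests in scipy 1.17.1. Tables used Python 3.11.15 with pandas 2.3.3 and numpy 2.4.6, and figures matplotlib 3.10.9. The script was tested on simulated data.

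The members and the 51 gene lists were chosen with earlier results of these data known, and the lists were corrected once the symbols in the table had been read. The naming rule took genes with a symbol carried by 1 gene. It chose the 20 largest rises and 20 largest falls without overlap whose higher group averaged 5 TPM or more, the 10 largest changes each way in TPM, the 5 largest differences between genotypes each way, and the 4 members with the lowest adjusted p in every list. Lists with under 8 members were taken whole. Values of 1 gene that the rule chose are not reported here. Other genes were named after their values were seen, mostly as exceptions or defining members of a list. Alternatives were pseudocounts of 0.1 and 5, a replicate block, quantile normalisation, median-of-ratios rescaling, no filter or a limit of 5 on the mean TPM, a fit on the compared groups only, limma-voom on the recovered reads, and each library left out. No sequence is shown, since no sequence of this genome build was used here.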

Additional observations from a re-analysis of the deposited data

Results flagged for a closer look

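The change over 24 h of darkness was compared between tpt10b and WT for 242 genes that the naming rule chose. The test of the difference called 137 of them in TPM as deposited. Since the median difference over all genes was -0.65 as deposited and 0.05 after rescaling, only the 61 genes whose difference was called both as deposited and after rescaling, with the same sign, are listed here. Values are log2 differences, the change in tpt10b minus the change in WT, as deposited, from limma at an adjusted p under 0.05.

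In 37 genes the change in tpt10b was higher than in WT. Flagellar and tubulin genes made up 18 of these. They were TUA2 (0.60), FAP222 (0.76), FAP199 (0.90), DIC1 (0.94), IFT54 (1.00), IFT38 (1.04), DIC2 (1.04), TUA1 (1.24), FAP170 (1.32), TUB2 (1.34), FAP385 (1.47), RSP9 (1.52), FAP41 (1.53), FAP1 (1.65), FAP292 (1.71), DLL3 (1.76), FAP149 (2.28) and FAP126 (2.48). The naming rule drew on several flagellar lists, so the number of flagellar genes here is no measure of enrichment. Over the whole list of 336 flagellar associated protein genes, 183 went higher in tpt10b and 51 lower as deposited. For all genes the shares were 6.25% and 57.9%. After rescaling these counts were 256 and 16, against 24.7% and 19.7% of all genes. Of 71 axonemal genes 37 went higher and 8 lower, and 56 and 1 after rescaling. Mean TPM at 0 h was lower in tpt10b for FAP292 (293 against 1051 in WT), FAP1 (66.5 against 189) and FAP385 (48.5 against 142). At 24 h the values were 27.0 against 29.1, 8.28 against 6.88 and 6.51 against 6.17. In these genes the genotypes differed more at 0 h than in darkness. The part of starting levels in the other differences was not tested. The plastid genes were rbcL (1.43), ycf12 (1.78), petB (2.40) and petL (3.13). The others were DGAT3 (0.44), MMP4 (0.54), ELIP8 (0.60), LCI9 (0.69), PHC5 (0.87), MID1 (1.06), PTA3 (1.09) and RPS30 (1.10), together with AMT1C (1.21), AOX1 (1.31), EZY3 (1.32), LIP1 (1.42), HSP70H (1.66), PHC18 (1.80) and NRX3 (2.63).

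In 24 genes the change in tpt10b was lower than in WT. Mitochondrion-encoded genes were nad2 (-1.71), nad4 (-1.27), nad6 (-2.29), cob (-1.53) and cox1 (-2.15), all at low TPM. The nuclear genes were FDX5 (-3.72), PRR1 (-3.41), NDA3 (-3.19), PFR1 (-3.15), SNRK2H (-3.13), PFH10 (-2.42), RPS27E2 (-2.41), SCLB1 (-1.99), MRPL36 (-1.99) and BIP2 (-1.76), together with AMA1 (-1.71), DP1 (-1.71), DEG1A (-1.62), AMA2 (-1.53), ROC59 (-1.53), CHL27A (-1.48), IRT2 (-1.46), DEG1C (-1.32) and OPR36 (-1.21). The tpt10b libraries at 24 h stand apart from the others in the number of genes above 0, and the part of that in these differences was not tested.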

How the results depend on the processing

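No gene that the naming rule chose and the test called at 24 h changed direction under any alternative, and calls were lost or gained mainly in RPS30, proteasome genes, MLT2 and petB. Filtering at a mean of 5 TPM over all 18 libraries left 8525 genes tested in place of 14731. Of these, 5996 were called in WT at 24 h (3523 higher, 2473 lower), where 9776 of 14731 were called above. For the genotype difference 5471 of the 8525 were called (4770 lower), and for the second day 4044 (2284 lower). For the genotype difference rescaling gave 3640 higher and 2909 lower, and quantile normalisation 6159 in all, 2966 higher and 3193 lower. A fit on the compared groups only gave 2425 lower on the second day. The cause was not tested. With each library left out, calls numbered 8975 to 9675 for WT at 24 h, 8493 to 9799 for the genotype difference and 4859 to 6022 for the second day.

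The share of TPM, 24 h minus 0 h in percentage points, was recomputed for all 51 lists. Without ribosomal protein and organelle genes in the total it turned positive for the Calvin-Benson cycle (0.000259), mitochondrial ribosomal proteins (0.00341), redox (0.00157), truncated hemoglobins (0.00323), gamete and zygote (0.00682), glycolysis (0.118) and CGL and CPL genes (0.171). It turned sign when a library was left out for the proteasome (-0.000988 without 0 h replicate 2, up to 0.0202), mitochondrion-encoded genes (-0.000146 without 24 h replicate 1, up to 0.000344), glycolysis (0.00696 without 24 h replicate 1, down to -0.0509) and CGL and CPL genes (0.000299 without 0 h replicate 1, down to -0.0602). No direction is drawn from these shares.

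No pairing of samples by replicate number was seen, though with 3 libraries a group this check cannot show that there was none. Of 45 correlations between deviations of same-numbered libraries, 6 exceeded 0.1, and in 0 of 18 libraries was the best match the same-numbered one. A replicate block gave 9670 calls for WT at 24 h, 9279 for the genotype difference and 5876 for the second day. At 3 libraries a group no permutation p can go below 0.1. Depth limits genes near 1 TPM most, where the added pseudocount shrinks log2 changes.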
